A study of Mus musculus with 15 samples.

Results

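The SoxB genes Sox1, Sox2, Sox3 and Sox21 are described here across mouse brain tumours of 2 models. They were chosen by name, as 4 of the 24421 genes in the deposited tables, and all 4 were found in each of the 3 tables. The tumours were labelled HGG, the usual abbreviation of high-grade glioma, and EPN, that of ependymoma. Poly(A) RNA of tumour tissue was sequenced in 15 libraries, 3 in each of 5 groups. The HGG tumours were controls, tumours labelled Sox9-LOF, for loss of function, or tumours labelled Sox9-GOF, for gain of function. The EPN tumours were controls or were labelled Sox9-GOF. The sources used here do not give the driver alleles of the tumours, the means by which Sox9 was altered, or the strain, sex and age of the mice. The labels do not tie the replicates to separate mice. All p-values therefore rest on the spread between these samples, part of which may be technical. The series title asks how Sox9, a transcription factor of glial development, acts in different brain tumour subtypes, and SoxB genes are its relatives that mark neural stem cells.

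The SoxB proteins bind DNA through an HMG domain, which they share with SOX9. Sox1, Sox2 and Sox3 form the SoxB1 subgroup, activators that keep neural progenitors dividing and undifferentiated, often together with POU-domain partners. Sox2 is also widely used as a marker of stem-like cells in gliomas. Sox21 and Sox14 form the SoxB2 subgroup, repressors that bind similar sites, counteract SoxB1 activity and favour neuronal differentiation.

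Positions below are those of the GENCODE annotation of GRCm38, the build that the submitters' processing notes name as mm10. Each of the 4 genes is a single exon with no intron. Sox2 (ENSMUSG00000074637.7) lies at chr3:34650405-34652461 on the plus strand, within the span of the noncoding gene Sox2ot on the same strand, with 0 shared exon bases. Sox1 (ENSMUSG00000096014.1) lies at chr8:12395295-12400126 on the plus strand, within the span of the noncoding gene Sox1ot, listed in the tables as Gm5607, and it shares 86 bases with the miRNA gene Gm25239. Sox3 (ENSMUSG00000045179.9) lies at chrX:60891366-60893430 on the minus strand. Sox21 (ENSMUSG00000061517.8) lies at chr14:118233232-118237030 on the minus strand and shares 713 exon bases with Gm4675, a noncoding gene on the opposite strand. How the counting treated strand is not stated in the sources used here, so whether the Sox21 counts hold reads of Gm4675 is not known. GC content was 66.4% for Sox3, above 99.8% of the measured genes. It was 58.3% for Sox21, 56.9% for Sox1 and 50.5% for Sox2, against a median of 49.8% over the measured genes.

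The start regions are shown for the members that had a RefSeq window. RefSeq windows of 300 bases (250 before the start, 50 after) on GRCm38.p6 matched 3 of the 4 members, Sox1, Sox2 and Sox21. They were searched on both strands for ACAAAG, a core sequence bound by HMG-domain proteins, for the POU octamer ATGCAAAT, for CCAAT and for TATAAA. Capitals mark a match. Sox2 is read at chr3:34649745-34649994 (plus strand), upstream of its RefSeq start. Sox21 is read at chr14:118237031-118237280 (minus strand), likewise upstream. Sox1 is shown by the 30 bases around its octamer, chr8:12395526-12395555 (plus strand), at bases 19 to 26 after the RefSeq start and inside the exon.
Sox2: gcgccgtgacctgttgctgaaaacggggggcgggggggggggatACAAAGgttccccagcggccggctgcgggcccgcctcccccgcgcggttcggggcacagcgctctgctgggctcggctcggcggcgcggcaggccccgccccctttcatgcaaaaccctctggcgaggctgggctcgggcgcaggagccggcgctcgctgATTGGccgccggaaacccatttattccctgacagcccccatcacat
Sox21: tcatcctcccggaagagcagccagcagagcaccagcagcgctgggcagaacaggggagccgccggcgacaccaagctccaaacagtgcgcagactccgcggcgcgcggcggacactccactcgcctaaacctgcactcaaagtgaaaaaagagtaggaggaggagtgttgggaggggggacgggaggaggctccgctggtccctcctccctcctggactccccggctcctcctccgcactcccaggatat
Sox1: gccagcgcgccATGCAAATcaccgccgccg

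The Sox2 window held ACAAAG from -206 to -201 and CCAAT, read on the other strand as ATTGG, from -46 to -42, both counted from the RefSeq start. The Sox1 window held the octamer and 1 CCAAT on the plus strand, from -237 to -233. The Sox21 window held none of the 4 motifs, and TATAAA was in none of the 3 windows. Of 32851 mouse windows of the same length, 18.7% held ACAAAG, 1.74% the octamer, 37.4% CCAAT and 13.6% TATAAA. All 3 windows were rich in GC, with 70.7% in Sox1, 66.3% in Sox2 and 65.7% in Sox21, against a median of 52.7% over all windows. In GENCODE, 274 bases of the Sox1 window lay in the Sox1 exon, and 0 bases of the Sox2 window lay in an exon. The Sox21 window overlapped exons of Sox21 and Gm4675. A match of letters describes the window and does not show binding.

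The depth per library was 4665428 to 14119140 reads assigned to genes, with a median of 10578708. Levels are given as rescaled counts, which are read counts divided by 1 scaling factor per library over all 15 libraries. The HGG controls were the least alike, with correlations between replicates of 0.819 to 0.861, against 0.930 to 0.965 in the other groups. HGG control 1 had the most transcript of choroid plexus markers, which summed to 110029 rescaled counts over 8 genes, against 1044 and 244 in HGG controls 2 and 3. These markers were also high in Sox9-LOF 3 (24688, against 498 and 194 in its group) and HGG Sox9-GOF 3 (9754, against 128 and 156). Sox9 itself was at 218 to 310.3 in the HGG controls, 395 to 739 in the libraries labelled Sox9-LOF and 1275 to 1537 in the HGG Sox9-GOF libraries. It was at 1040.2 to 1189 in the EPN controls and 1834 to 2692 in the EPN Sox9-GOF libraries. All 3 libraries labelled Sox9-LOF thus had more Sox9 transcript than every HGG control, so that label is not matched by a lower transcript level, and no direction of Sox9 function is read from it here.

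Sox2, the SoxB1 gene with the highest level in every library, had rescaled counts of 2506, 1406 and 642 in HGG controls 1, 2 and 3, a mean of 1518 ± 937 (SD, n = 3). Sox9-LOF libraries had 1138, 1472 and 840.3, a mean of 1150.0 ± 316 (SD, n = 3). The HGG Sox9-GOF libraries had 902, 1268 and 772, a mean of 981 ± 257 (SD, n = 3). The 3 HGG groups overlapped one another, and HGG control 3 was the lowest of the 9 HGG libraries. The EPN controls had 713, 456 and 667, a mean of 612 ± 137 (SD, n = 3). The EPN Sox9-GOF libraries had 333, 327 and 147, a mean of 269 ± 106 (SD, n = 3). Those 3 were the lowest of all 15 libraries and did not overlap the EPN controls.

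Sox3, the X-linked SoxB1 gene, had rescaled counts of 589, 590.4 and 234 in HGG controls 1, 2 and 3, a mean of 471 ± 205 (SD, n = 3). Sox9-LOF libraries had 83.0, 208 and 71.2, a mean of 121 ± 75.6 (SD, n = 3). The HGG Sox9-GOF libraries had 170.1, 232 and 56.1, a mean of 153 ± 89.2 (SD, n = 3). The HGG controls were the 3 highest of all 15 libraries, with HGG control 3 only just above the highest HGG Sox9-GOF library. The EPN controls had 44.4, 105 and 73.1, a mean of 74.1 ± 30.2 (SD, n = 3). The EPN Sox9-GOF libraries had 142, 179 and 94.1, a mean of 138 ± 42.5 (SD, n = 3). Below the HGG controls the 4 other groups overlapped their neighbours in the order HGG Sox9-GOF, EPN Sox9-GOF, Sox9-LOF and EPN control.

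Sox1, the SoxB1 gene most restricted to neural tissue, had rescaled counts of 7.94, 219 and 213 in HGG controls 1, 2 and 3, a mean of 147 ± 120.3 (SD, n = 3). HGG control 1 rested on 10 reads and was the only HGG library in the range of the EPN Sox9-GOF libraries. The libraries labelled Sox9-LOF had 167, 161 and 154, a mean of 161 ± 6.81 (SD, n = 3). The HGG Sox9-GOF libraries had 40.9, 81.5 and 107, a mean of 76.5 ± 33.3 (SD, n = 3), with all 3 under the lowest Sox9-LOF library. The EPN controls had 31.7, 21.4 and 40.4, a mean of 31.2 ± 9.53 (SD, n = 3). The EPN Sox9-GOF libraries had 10.1, 10.5 and 1.92, from 14, 12 and 2 reads, a mean of 7.49 ± 4.83 (SD, n = 3). All 3 were below every EPN control.

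Sox21, the SoxB2 repressor, had rescaled counts of 85.7, 217 and 98.7 in HGG controls 1, 2 and 3, a mean of 134 ± 72.5 (SD, n = 3). Sox9-LOF libraries had 234, 127 and 162, a mean of 174 ± 54.3 (SD, n = 3). The HGG Sox9-GOF libraries had 61.7, 125 and 102, a mean of 96.1 ± 31.9 (SD, n = 3). These 3 were below every Sox9-LOF library and overlapped the HGG controls. The EPN controls had 28.5, 39.4 and 40.4, a mean of 36.1 ± 6.62 (SD, n = 3). The EPN Sox9-GOF libraries had 8.65, 35.8 and 1.92, from 12, 41 and 2 reads, a mean of 15.4 ± 17.9 (SD, n = 3). All 6 EPN libraries were below every one of the 9 HGG libraries, which held for 4 of 6 EPN libraries in Sox2, 1 of 6 in Sox1 and 1 of 6 in Sox3. The share of all genes that separate the models over these libraries was not counted. Between the controls alone, groups did not overlap for 40.3% of the 15105 genes tested, so the separation is not read as particular to Sox21. Sox14, the other SoxB2 gene, had 3 reads in Sox9-LOF 3 and 0 reads in the other 14 libraries.

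**Figure D1:**
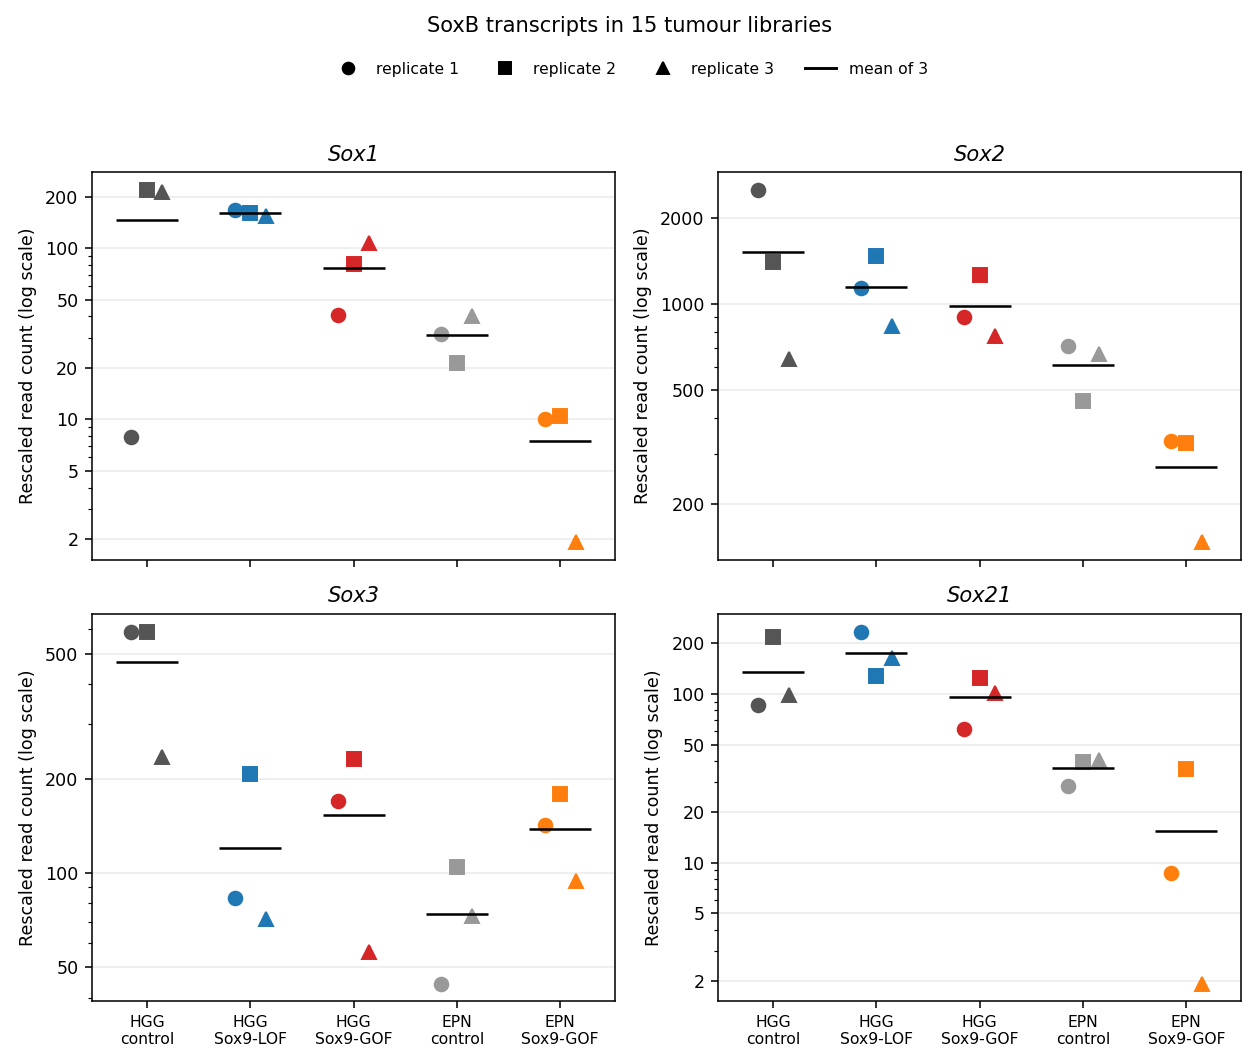
Rescaled read counts (log axis) of Sox1, Sox2, Sox3 and Sox21 in each of the 15 libraries, by group, with 1 point per library and a bar at the mean of 3. Sox1, Sox2 and Sox21 have their lowest means in EPN Sox9-GOF (7.49, 269 and 15.4), while Sox3 has its highest mean in HGG control (471) and its lowest in EPN control (74.1).

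Between genes, levels were compared per length as RPKM, the read count divided by exon length and by the library total. Sox2 led in every group, with a mean of 76.5 ± 47.4 RPKM (SD, n = 3) in the HGG controls, 59.0 ± 17.1 in Sox9-LOF, 51.4 ± 14.3 in HGG Sox9-GOF, 29.9 ± 7.16 in the EPN controls and 12.6 ± 5.05 in EPN Sox9-GOF. Sox3 came next, at 23.7 ± 10.5 RPKM (SD, n = 3) in the HGG controls, 6.16 ± 3.90 in Sox9-LOF, 7.96 ± 4.73 in HGG Sox9-GOF, 3.58 ± 1.40 in the EPN controls and 6.44 ± 1.97 in EPN Sox9-GOF. Sox21 and Sox1 were the scarcest, with group means of 0.39 to 4.84 RPKM for Sox21 and 0.15 to 3.50 for Sox1. Sox2 made up 61.8% to 90.7% of the summed RPKM of the 4 genes in 14 libraries and 60.6% in EPN Sox9-GOF 3, so most SoxB transcript was Sox2 in all of them.

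The ratio of Sox3 to Sox2 RPKM within a library cancels the scaling between libraries. HGG controls 1, 2 and 3 had ratios of 0.234, 0.418 and 0.364. The Sox9-LOF libraries had 0.073, 0.141 and 0.084, and those of HGG Sox9-GOF 0.188, 0.182 and 0.072. Both altered HGG groups were therefore below all HGG controls. EPN controls 1, 2 and 3 had 0.062, 0.229 and 0.109. Ratios in EPN Sox9-GOF were 0.425, 0.545 and 0.638, all above those controls. The means were 0.339 ± 0.095 in the HGG controls, 0.147 ± 0.065 in HGG Sox9-GOF, 0.133 ± 0.086 in the EPN controls and 0.536 ± 0.107 in EPN Sox9-GOF (SD, n = 3 each). The ratio was compared between Sox9-LOF and HGG control, HGG Sox9-GOF and HGG control, EPN Sox9-GOF and EPN control, and the controls of both models. Each of these gave p = 0.1 in an exact two-sided permutation test, the smallest that 3 against 3 allows, and 0.3 after Benjamini-Hochberg adjustment over the 15 ratio comparisons computed. The ratio was chosen after its values had been seen. Of the remaining 11 comparisons, the Sox1 to Sox2 ratio in EPN Sox9-GOF (0.011 ± 0.004 against 0.022 ± 0.004 in the EPN controls; SD, n = 3) also had groups that did not overlap (exact permutation p = 0.1, adjusted 0.3).

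**Figure D2:**
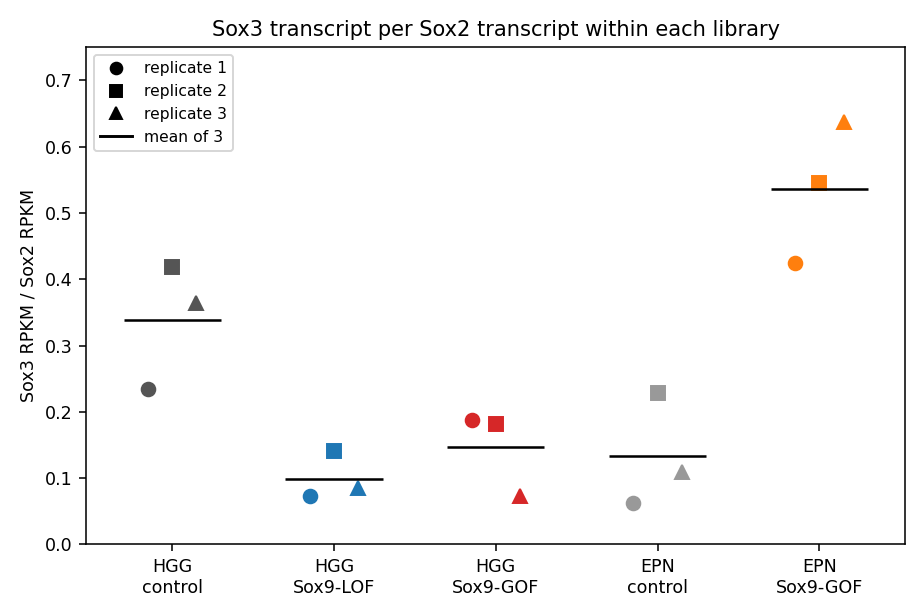
Ratio of Sox3 to Sox2 RPKM in each library, by group, with 1 point per library and a bar at the mean of 3. The EPN Sox9-GOF libraries lie between 0.425 and 0.638, above the EPN controls (0.062 to 0.229), while the HGG Sox9-GOF libraries (0.072 to 0.188) lie below the HGG controls (0.234 to 0.418).

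EPN control tumours had less Sox3 and Sox21 transcript than HGG control tumours. Sox3 was 6.13-fold lower in the fit (log2 fold change -2.62, SE 0.48, limma adjusted p = 0.019) and Sox21 3.37-fold lower (log2 fold change -1.75, SE 0.43, limma adjusted p = 0.043). Fold changes not credited to DESeq2 are on the scale of log2(normalized count + 1), where the added 1 shrinks the change of low genes. They are differences between means of log values, so a DESeq2 value can be smaller or larger. Thus 2 of the 4 members passed the test, both lower, where 15.3% of all 15105 genes tested passed it, 5.83% as lower and 9.51% as higher. In bulk tissue, fewer cells expressing a gene and less of its RNA per cell cannot be told apart. Sox2 did not pass, with a log2 fold change of -1.13 (SE 0.49, limma adjusted p = 0.17, DESeq2 adjusted p = 0.044), nor did Sox1, with -1.26 (SE 1.25, limma adjusted p = 0.52). The groups did not overlap for Sox3 and Sox21, as for 40.3% of the genes tested. Without any 1 of the 3 EPN controls, neither gene passed, and without HGG control 2 or 3 Sox21 did not. Leaving out HGG control 1 brought Sox1 past the threshold, at a log2 fold change of -2.80 (limma adjusted p = 0.0088), and leaving out HGG control 3 did the same for Sox2, at -1.64 (limma adjusted p = 0.035). A correction for GC content and length, added after the data had been seen, gave -1.59 for Sox3 (limma adjusted p = 0.10) and -1.38 for Sox21 (limma adjusted p = 0.067), and neither then passed.

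In HGG, the libraries labelled Sox9-LOF showed no SoxB change that passed the limma test. The value of Sox3 was 4.03-fold lower (log2 fold change -2.01, SE 0.55, limma adjusted p = 0.17), with groups that did not overlap (exact permutation p = 0.1, the smallest possible). Such separation was found for 24.5% of the 14861 genes tested. DESeq2 put Sox3 past the threshold, with an adjusted p of 0.018, and edgeR did not (0.18). Sox2 had a log2 fold change of -0.23 (SE 0.50), Sox21 of 0.45 (SE 0.43) and Sox1 of 1.10 (SE 1.21), with limma adjusted p of 0.84, 0.62 and 0.67. The sign of the Sox1 and Sox2 values turned without HGG control 1, to -0.44 and 0.22. limma called 0 of the 4 members and 0 of all genes (0%), with 2564 genes at an unadjusted p under 0.05, edgeR called 0 genes and DESeq2 1339.

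The HGG Sox9-GOF libraries likewise had 0 of the 4 members past the limma test, as for 0% of the 15092 genes tested. Sox3 was again the member with the largest difference, 3.25-fold lower than in the same HGG controls (log2 fold change -1.70, SE 0.63, limma adjusted p = 0.18, DESeq2 adjusted p = 0.064). On the rescaled counts its groups just failed to overlap (234 in HGG control 3 against 232 in HGG Sox9-GOF 2). On the deposited scale used for this fit they overlapped (253 against 257). The groups did not overlap on that deposited scale for 30.5% of the genes tested, and Sox3 is not among these. Sox2 had a log2 fold change of -0.43 (SE 0.50), Sox21 of -0.38 (SE 0.46) and Sox1 of -0.03 (SE 1.28), with limma adjusted p of 0.66, 0.67 and 0.99. Each of these 3 values turned sign without 1 library (Sox2 without HGG control 1, Sox21 without HGG control 2, Sox1 without HGG control 2, HGG control 3 or HGG Sox9-GOF 1), and Sox1 was -0.93 in DESeq2. At an unadjusted p under 0.05 there were 3420 genes, edgeR called 0 and DESeq2 2260. Sox9-LOF and HGG Sox9-GOF were both set against these 3 HGG controls, so their Sox3 values share them. Set directly against each other, HGG Sox9-GOF and Sox9-LOF differed in Sox3 by a log2 fold change of 0.28 (SE 0.60, 95% interval -1.10 to 1.67, limma adjusted p = 0.94). Sox1 was lower in Sox9-GOF by -1.17 (SE 0.36, limma adjusted p = 0.62) and Sox21 by -0.87 (SE 0.35, limma adjusted p = 0.66), both with groups that did not overlap, as for 13.6% of the 14873 genes tested. None of the 4 passed, nor did any other gene in limma (0%), with 1102 genes at an unadjusted p under 0.05, 0 called by edgeR and 139 by DESeq2.

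In EPN, the Sox9-GOF libraries had less Sox1, Sox2 and Sox21 and more Sox3 than their controls by point estimate, and 0 of the 4 differences passed the limma test (0% of the 14591 genes tested passed it). Sox2 was 2.30-fold lower (log2 fold change -1.20, SE 0.36, 95% interval -2.04 to -0.37, limma adjusted p = 0.19, DESeq2 adjusted p = 0.045). Sox1 was 4.20-fold lower (log2 fold change -2.07, SE 0.67, limma adjusted p = 0.21, DESeq2 adjusted p = 0.099). Their groups did not overlap, as for 22% of the genes tested. Sox21 had a log2 fold change of -1.81 (SE 0.88, limma adjusted p = 0.39) and Sox3 of 0.97 (SE 0.39, limma adjusted p = 0.31), and both overlapped their controls. The Sox21 value was -0.91 without EPN Sox9-GOF 3, -2.74 without EPN Sox9-GOF 2 and -1.19 in DESeq2. The value of Sox3 stood at the 98.3 percentile of all fold changes in this comparison. At an unadjusted p under 0.05 there were 2196 genes, edgeR called 0 and DESeq2 842.

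The Sox9-GOF effect on Sox3 was 2.65 higher on the log2 scale in EPN than in HGG (SE 0.79, 95% interval 0.91 to 4.39, limma adjusted p = 0.066), which did not pass the threshold in the main test. This contrast of 4 group means called 6.1% of 15088 genes, 2.63% higher and 3.47% lower in EPN. It called 0 of the 4 members, with 4102 genes at an unadjusted p under 0.05. Sox3 passed in DESeq2 (adjusted p = 0.013), with the replicate number as a block (limma adjusted p = 0.040) and without HGG control 3 (limma adjusted p = 0.029). Over all alternatives the adjusted p ran up to 0.39, with the GC and length correction (difference 1.39), and up to 0.13 on leaving out 1 library. For Sox1, Sox2 and Sox21 the difference between the effects was -2.06 (SE 1.53), -0.80 (SE 0.66) and -1.45 (SE 1.07), with limma adjusted p of 0.42, 0.47 and 0.41.

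**Figure D3:**
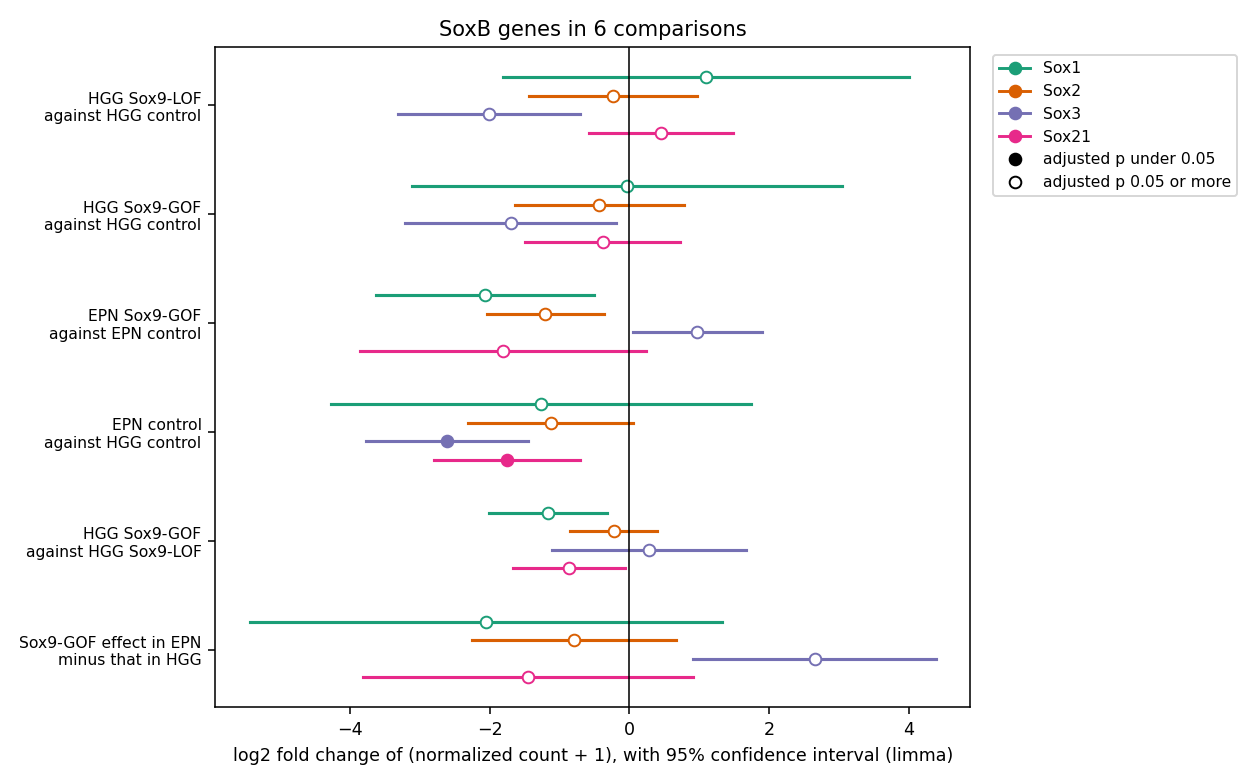
Log2 fold changes of the 4 SoxB genes in the 5 comparisons of groups and in the difference between the Sox9-GOF effects, with 95% confidence intervals from limma. Filled points passed the threshold, which were Sox3 (-2.62) and Sox21 (-1.75) in EPN control against HGG control; Sox3 lies to the right of zero in EPN Sox9-GOF (0.97) and to the left in HGG Sox9-GOF (-1.70).

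GC content moved with these results in 5 of the 6 comparisons, and most for Sox3, the member richest in GC. Across genes, the Spearman correlation of fold change with GC content was -0.47 in Sox9-LOF, -0.58 in HGG Sox9-GOF, -0.01 in EPN Sox9-GOF, -0.27 in HGG Sox9-GOF against Sox9-LOF, -0.25 between the controls and 0.41 in the difference between the effects. With the trend on GC and length removed, the Sox3 log2 fold change went from -2.01 to -0.996 in Sox9-LOF, from -1.70 to -0.50 in HGG Sox9-GOF and from 2.65 to 1.39 in the difference between the effects. In HGG Sox9-GOF against Sox9-LOF it went from 0.28 to 0.48, and in EPN Sox9-GOF from 0.97 to 0.89. Sox2, near the median in GC, moved by less, from -0.23 to -0.10 in Sox9-LOF, from -0.43 to -0.25 in HGG Sox9-GOF and from -1.20 to -1.27 in EPN Sox9-GOF. In HGG Sox9-GOF the corrected values of Sox1 and Sox21 changed sign, to 0.41 and 0.25. The part of GC content in the Sox3 differences was not tested beyond this correction.

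**Figure D4:**
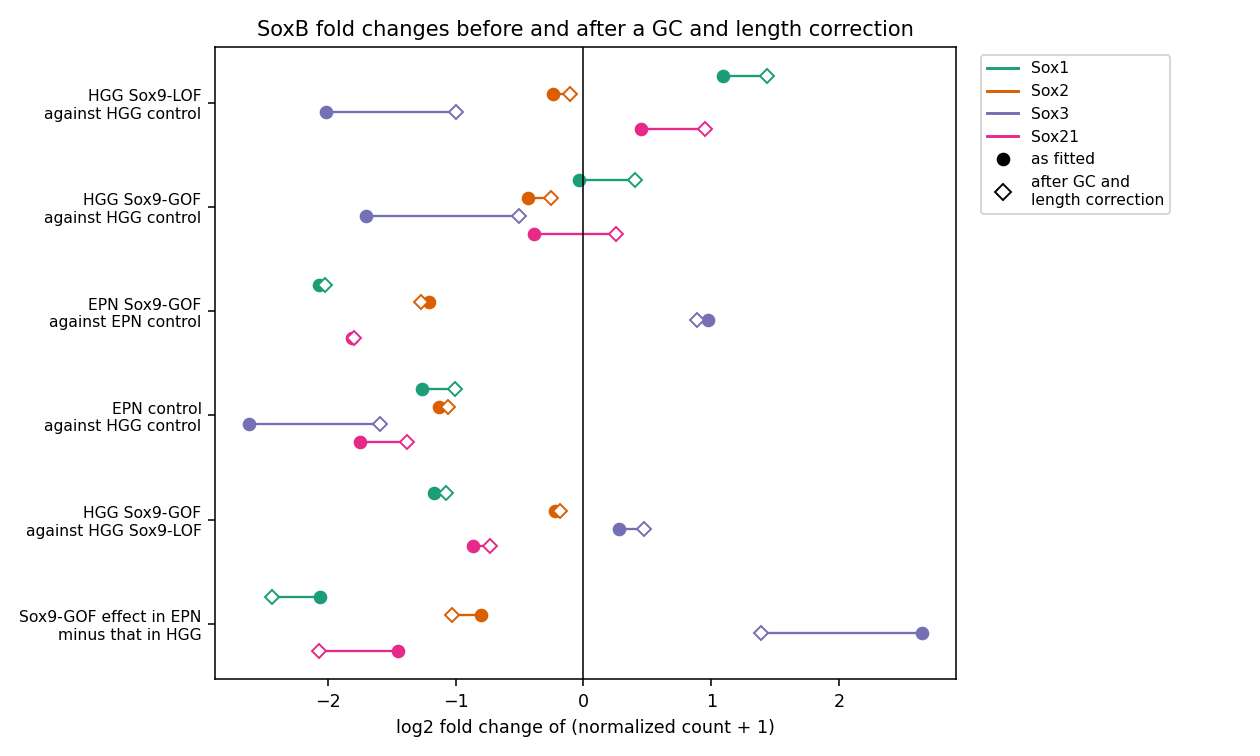
Log2 fold changes of the 4 SoxB genes as fitted (filled circles) and once a trend on GC content and length was removed (open diamonds), joined by a line for each gene and comparison. Sox3 moves most, from -2.62 to -1.59 in EPN control against HGG control and from -1.70 to -0.50 in HGG Sox9-GOF, and little in EPN Sox9-GOF (0.97 to 0.89).

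Sox3 is X-linked, and Xist, the noncoding RNA of the inactive X in female cells, differed between libraries. Xist was above 1000 rescaled counts in 3 of 3 HGG controls, 1 of 3 Sox9-LOF, 2 of 3 HGG Sox9-GOF, 2 of 3 EPN control and 0 of 3 EPN Sox9-GOF libraries. Within Sox9-LOF the library with Xist had the highest Sox3 (208 against 83.0 and 71.2). Both EPN controls with Xist (105 and 73.1) had more Sox3 than the one without (44.4). Within HGG Sox9-GOF the library without it had the highest (232 against 170.1 and 56.1). The Y-linked genes Ddx3y, Eif2s3y, Kdm5d and Uty went the other way. Each was at most 3.38 rescaled counts in every library with Xist above 1000, and at least 170 in every other library. By these transcripts all HGG controls read as female and all EPN Sox9-GOF libraries as male, with both sexes in the other groups. Groups compared for Sox3 thus differed in sex as read from these genes, and the part of sex in those differences was not tested.

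Markers of other cells also varied between the groups. In both HGG comparisons, where Sox3 had its lower values, the 12 astrocyte markers all had positive fold changes (median 1.47 in Sox9-LOF, 0.90 in HGG Sox9-GOF). Of 12 neuron markers, 12 were positive in Sox9-LOF (median 0.96) and 10 in HGG Sox9-GOF (median 0.95), while 10 of 10 lymphocyte markers were negative in each (medians -2.40 and -0.85). Among all genes tested, 49.3% and 48.1% were negative. The lymphocyte markers summed to 2060, 41.0 and 3457 in HGG controls 1, 2 and 3. They summed to 73.8 to 423 in Sox9-LOF and 161 to 684 in HGG Sox9-GOF, all above HGG control 2. Microglia and macrophage markers were positive for 4 of 12 in Sox9-LOF (median -0.14) and 12 of 12 in HGG Sox9-GOF (median 0.64). The astrocyte markers summed to 11311, 43691 and 47359 in the HGG controls, 69569 to 81849 in Sox9-LOF and 29736 to 115079 in HGG Sox9-GOF, with HGG control 1 the lowest. In the EPN Sox9-GOF libraries the 12 neuron markers summed to 4802, 4639 and 3685 rescaled counts, against 8651, 9565 and 17120 in the EPN controls, and 11 of 12 had a negative fold change (median -2.29). The 12 astrocyte markers summed to 12524, 32422 and 10287 against 45607, 40663 and 41013, with 12 of 12 negative (median -1.55), and 9 of 10 oligodendrocyte precursor markers were negative (median -1.36). Also negative were 9 of 10 mature oligodendrocyte (median -1.88), 11 of 12 microglia and macrophage (-0.38) and 8 of 8 endothelial markers (-0.53). Positive were 8 of 10 lymphocyte markers (median 0.67), 3 of 5 measured ependymal and cilia markers and 2 of 5 measured choroid plexus markers. The median over all genes was 0.04. In limma 0 members of these lists passed in EPN Sox9-GOF, as for 0% of all genes tested. DESeq2 called 10 of 12 neuron, 5 of 12 astrocyte and 4 of 10 oligodendrocyte precursor markers lower, and 0 of them higher. It called 5.77% of all genes in that comparison. In the EPN controls against the HGG controls, 5 of 8 endothelial markers were higher in limma (Cdh5, Emcn, Esam, Kdr and Pecam1, the last named after its value had been seen), with sums of 3367 to 4597 against 663 to 1562. Of 10 oligodendrocyte precursor markers, Olig1 and Ptprz1 were lower in limma, and the list summed to 13280 to 15343 against 17102 to 68973. Among all genes tested in this comparison, limma called 9.51% higher and 5.83% lower. The neuron markers summed to 5278 in HGG control 1, the HGG library with the lowest Sox1, and to 21459 and 59533 in HGG controls 2 and 3. Of 5 erythroid markers, Hba-a1, Hba-a2, Hbb-bs and Hbb-bt were at 0 reads in all groups. The list summed to 2.27 to 65.4 rescaled counts per library, all from Alas2. How reads were counted is not given, so the 0 reads are not taken as an absence of blood cells. The part of these cell types in the SoxB differences was not tested.

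Genes that act with or after the SoxB factors were read from 4 lists. Of 14 partner transcription factors, 2 passed the limma test in the EPN controls against the HGG controls, and both were lower. They were Olig2, an oligodendrocyte lineage factor (log2 fold change -3.16, SE 0.41, limma adjusted p = 0.0076), and Pou3f1, a POU-domain partner (-2.90, SE 0.54, limma adjusted p = 0.019). The list's median was -0.23, against 0.00 over all genes. Among all genes 15.3% passed there, 5.83% as lower, so the count of 2 is not read as a result about the list. In the other 5 comparisons 0 partners passed in limma, and medians ran from -0.66 in EPN Sox9-GOF to 0.33 in Sox9-LOF. In EPN Sox9-GOF the brain POU factors Pou3f3, Pou3f2 and Pou3f4 had values of -1.09, -1.23 and -1.04 (limma adjusted p = 0.21, 0.25 and 0.33).

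Of 18 neural stem and progenitor genes, 17 were measured in the comparison of controls, and 2 were higher and 3 lower in EPN, where 9.51% of all genes were called higher and 5.83% lower. Gli3, a transducer of Hedgehog signals, was higher (log2 fold change 3.76, limma adjusted p = 0.0037), as was its relative Gli2 (2.69, limma adjusted p = 0.034), named after its value had been seen. Hes5, a NOTCH target that holds back neurogenesis, was lower (-3.09, limma adjusted p = 0.015), as were Fabp7, a radial glial fatty acid binding protein (-2.31, limma adjusted p = 0.031), and Hopx, a marker of radial glia (-1.75, limma adjusted p = 0.022). The list's median was 0.37. In EPN Sox9-GOF none of 17 passed in limma, 6 had positive values and 11 negative, and the median was -0.25. The genes with the smallest p were Egfr (-1.33), the glutamate transporter gene Slc1a3 (-1.90) and Nr2e1, a nuclear receptor of neural stem cells (-2.26), with limma adjusted p of 0.17, 0.17 and 0.23.

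Of 16 neuronal differentiation factors, 12 were measured between the controls. All 12 had negative values (median -1.51), as had 49.8% of all genes. The limma test called 5.83% of all genes lower in EPN, and 3 of these factors. Among them were Dcx, a microtubule protein of young neurons (log2 fold change -2.22, limma adjusted p = 0.0079), and Elavl3, a neuronal RNA-binding protein (-1.74, limma adjusted p = 0.028). In EPN Sox9-GOF 11 were measured and 11 had negative values (median -2.03), as had 45.0% of all genes, with 0 past the limma test and 5 past that of DESeq2 (Tbr1, Elavl4, Dcx, Elavl3 and Neurod6, the last named after its value had been seen). DESeq2 called 842 of all 14591 genes in this comparison (5.77%), 721 of them lower. Tbr1, a factor of cortical projection neurons, had -2.68, Elavl4 -1.97 and Dcx -1.72 (limma adjusted p = 0.15, 0.16 and 0.17). In HGG Sox9-GOF 9 of 12 had positive values (median 0.39), and 0 passed in limma. The difference between the Sox9-GOF effects was negative for 12 of 12, and Elavl4 passed (-3.13, SE 0.63, limma adjusted p = 0.025). Among all genes this difference was negative for 52.3%, and limma called 3.47% lower.

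Of 15 other Sox genes, 12 were measured between the controls, of which 2 were higher and 2 lower in EPN, beside 9.51% higher and 5.83% lower of all genes. Sox9 (log2 fold change 2.02, limma adjusted p = 0.0043) and Sox7, an endothelial factor (1.57, limma adjusted p = 0.042), were higher. Sox8, a SoxE relative of Sox9 (-2.65, limma adjusted p = 0.014), and Sox12, a SoxC gene (-1.63, limma adjusted p = 0.044), were lower. The list's median was 0.21 there and 0.05 in EPN Sox9-GOF, where 0 of 12 passed in limma.

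The noncoding neighbours were compared with the genes they surround. Sox2ot had rescaled counts of 284 to 471 in the HGG controls, 461 to 531 in Sox9-LOF, 188 to 408 in HGG Sox9-GOF, 129.6 to 224 in the EPN controls and 51.9 to 107 in EPN Sox9-GOF. Its lowest group was therefore that of Sox2, without overlap with the EPN controls (log2 fold change -1.07, SE 0.37, limma adjusted p = 0.23). Between the controls its log2 fold change was -1.03 (SE 0.31, limma adjusted p = 0.068). Gm5607, the Sox1ot transcript, had 2.38, 49.2 and 97.3 in HGG controls 1, 2 and 3, and 0 to 4.36 in EPN Sox9-GOF, from 1, 5 and 0 reads. HGG control 1 was thus low in both Sox1 and Gm5607. Neither neighbour shares exon bases with the gene it surrounds.

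Likeness was measured by Pearson's r of log2(rescaled count + 1) over the 15 libraries among 14283 genes, as a description, since all genes share the libraries, the tumour models and the scaling. Most like Sox2 were the tubulin gene Tuba1a (r = 0.948), the homeobox gene Nkx2-2 (0.935) and the histone gene Hist3h2ba (0.935). Sox1 was followed most closely by Sez6l2 (0.969), Asphd1 (0.965) and the pannexin gene Panx2 (0.958), and Sox21 by the thrombospondin gene Thbs3 (0.977), the scaffold gene Magi1 (0.973) and Dfna5 (0.969). Sox3 had the least close matches, Pop4, an RNase P subunit (0.915), the translation initiation factor gene Eif3f (0.901) and the tRNA splicing gene Tsen34 (0.893). Nkx2-2 had mean levels of 462 ± 316, 160 ± 76.7, 194 ± 75.0, 56.5 ± 7.41 and 20.9 ± 19.6 (SD, n = 3 each) from the HGG controls through Sox9-LOF, HGG Sox9-GOF and the EPN controls to EPN Sox9-GOF. Pop4 had its highest mean in the HGG controls (643 ± 177; SD, n = 3) and 172 ± 39.9, 255 ± 123 and 153 ± 34.8 in Sox9-LOF, HGG Sox9-GOF and the EPN controls.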

How the data were processed

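Per the labels' protocols, RNA from tumour tissue was made into libraries with a stranded poly(A) kit. Listed in the submitters' processing notes, without roles, are mm10 as the build, DESeq2 1.30.1, STAR 2.5.0a, MultiQC 1.11 and FastQC 0.11.7. How reads were counted per gene, and with which annotation, is not given in the sources used here. Each of the 3 deposited tables holds 6 libraries. The deposited unit is a signal, and the values themselves show it to be reads per gene over 1 size factor for each library. Whole reads were recovered for 100% of values within 0.001 read, and 0 columns of samples were left unused. The 3 HGG controls are the same libraries in both HGG tables.

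Differences were tested with limma 3.58.1 in R 4.3.3, with a variance trend, on log2(normalized count + 1). Genes needed a mean of 10 or more over the fitted libraries, and p-values were Benjamini-Hochberg adjusted over all genes tested (threshold 0.05). The comparisons with controls of the same model used the deposited scale of their table. Other comparisons and all printed levels used recovered reads of the 15 libraries rescaled together by the median of ratios. RPKM used GENCODE exon lengths. Single values were set side by side by an exact two-sided permutation test. The members and the 15 lists (162 entries, 162 matched, with Otx2 and Sox10 each entered more than once) were chosen with earlier results of these data known. Named genes were the members, their noncoding neighbours, up to 4 genes per list by smallest p, and the 3 genes most like each member. Counts over a list include genes that are not reported here by name.

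Alternatives were other pseudocounts, filters and scaling (TMM), edgeR 4.0.16 and DESeq2 1.42.0 on recovered reads, the spread of all 15 libraries, the replicate number as a block, and leaving out each library. A GC and length correction (loess, span 0.3), alone and with the block, was added after the data had been seen. The labels number the replicates 1 to 3 in every group. In HGG Sox9-GOF against control, same-numbered deviations from the group means correlated at 0.17, 0.44 and 0.23, so the numbers may pair those libraries, and not all exceeded 0.1 in the other comparisons. The fitting script was tested on simulated data.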

Additional observations from a re-analysis of the deposited data

Results flagged for a closer look

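The ratio of Sox3 to Sox2 RPKM was lower in HGG Sox9-GOF and higher in EPN Sox9-GOF than in the controls of each model. A ratio was flagged only if its Sox9-GOF libraries all lay below the control mean in HGG and above it in EPN, or the reverse. The sides of the ranges below therefore follow from that rule. Both comparisons had an exact permutation p of 0.1, or 0.3 adjusted over the 15 ratio comparisons. The ratio was chosen after its values had been seen. Each HGG Sox9-GOF library stood at 0.214 to 0.555 of the HGG control mean, and each EPN Sox9-GOF library at 3.19 to 4.79 of the EPN control mean. The EPN effect divided by the HGG effect was 9.23, and this difference was not tested. Xist above 1000 rescaled counts was found in 3 of 3 HGG controls and 0 of 3 EPN Sox9-GOF libraries, and its part in the ratio was not tested. With the GC and length correction the log2 fold changes in HGG Sox9-GOF were -0.50 for Sox3 and -0.25 for Sox2, closer together than the uncorrected -1.70 and -0.43. In EPN Sox9-GOF they were 0.89 and -1.27, against 0.97 and -1.20.

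Of the listed genes that could be tested here, 6 had Sox9-GOF effects that differed between the models in the interaction test of limma, all lower in EPN. The contrast called 6.1% of all genes tested, 3.47% as lower, so this count is not a result about the lists. Sox9 differed by -1.39 on the log2 scale (limma adjusted p = 0.021), with effects of 1.04 in EPN and 2.40 in HGG. The neuronal genes Elavl4 and Map2 differed by -3.13 and -1.86 (limma adjusted p = 0.025 and 0.024). Ptprz1, a receptor phosphatase of oligodendrocyte precursors, differed by -2.92 (limma adjusted p = 0.020), and Ugt8a, an enzyme of myelin lipid synthesis, by -2.24 (limma adjusted p = 0.045). P2ry12, a microglial receptor, differed by -3.01 (limma adjusted p = 0.027). With the GC and length correction the same contrast called 24 genes in place of 920. Groups of 3 libraries were too small for a search for single outlying samples.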

How the results depend on the processing

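Of 430 alternative values for the 24 combinations of member and comparison, 394 kept their direction and their side of the threshold, 15 lost a call, 8 gained one and 13 turned sign. The calls of Sox3 and Sox21 between the controls were the only member calls of the main test. Members called there numbered 1 with no filter on low values, 1 with the spread of all 15 libraries, 1 with the replicate block (Sox3, limma adjusted p = 0.045), and 0 with the GC and length correction, with or without the block. Between the controls edgeR called Sox3 and Sox21 (edgeR adjusted p = 0.019 and 0.039). DESeq2 called Sox3, Sox21 and Sox2 there (DESeq2 adjusted p = 4.4e-06, 0.0015 and 0.044). The block gave 1 called member (Sox3) in the difference between the Sox9-GOF effects and changed no other member call. In the other HGG and EPN comparisons DESeq2 called 1 member in Sox9-LOF (Sox3), 1 in EPN Sox9-GOF (Sox2) and 1 in the difference between the effects (Sox3). The turned signs outside leaving out a library were Sox1 (0.41) and Sox21 (0.25) in HGG Sox9-GOF under the GC correction, with and without the block. Counts of called genes with DESeq2 were 1339 in Sox9-LOF, 2260 in HGG Sox9-GOF, 842 in EPN Sox9-GOF, 4396 between the controls, 139 in Sox9-GOF against Sox9-LOF and 2468 in the difference between the effects. With the spread of all 15 libraries they were 1086, 2234, 130, 4176, 1 and 1514. A filter at a mean of 50 gave 1 gene in Sox9-LOF and 161 in HGG Sox9-GOF. The block gave 1142 genes between the controls, and with the GC correction 1056 there and 3 in the difference between the effects, where the GC correction alone gave 24. Leaving out 1 library moved the counts to 0 to 6, 0 to 0, 0 to 5, 368 to 3633, 0 to 2 and 44 to 2135 genes, in the order of comparisons just given for DESeq2, and to 0 to 0, 0 to 0, 0 to 0, 0 to 3, 0 to 0 and 0 to 1 members. It turned signs in Sox9-LOF for Sox1 (-0.44 to 1.88) and Sox2 (-0.75 to 0.22), in HGG Sox9-GOF for Sox1 (-1.58 to 0.75), Sox2 (-0.95 to 0.032) and Sox21 (-0.64 to 0.033), and in Sox9-GOF against Sox9-LOF for Sox3 (-0.13 to 0.88). A fit without 1 library leaves 2 in its group. The cause of these changes was not tested. Depth limits Sox1 and Sox21 most in EPN Sox9-GOF, where 1 library held 2 reads of each.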
